A study of Mus musculus with 6 samples.

Results

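Described here are the secreted and membrane-bound metalloproteases that cut the extracellular matrix, the matrix metalloproteases (MMPs) and the ADAMTS proteases, together with their inhibitors, the TIMPs. The members are all genes of the deposited count table named Mmp with a number and an optional letter a or b, Adamts with a number, or Timp with a number from 1 to 4. They were 46 of 22740 protein-coding genes, made up of 23 MMP genes, 19 ADAMTS genes and 4 TIMP genes. RNA was sequenced from B16 cells, a pigmented mouse melanoma line that the series' design text calls B16-F10. Both groups were the same line, labelled BRAFV600E-negative and grown in DMEM with serum and antibiotics. One group of 3 samples was given the vehicle DMSO and the other group of 3 samples 1 uM CX-5461, and both were treated for 3 days. The compound CX-5461 blocks RNA polymerase I, which transcribes the ribosomal RNA genes, and also binds G-quadruplex DNA. Nothing in the labels says whether the 3 samples of a group were separate cultures, so p-values measure only the spread between these samples.

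As background, MMPs are zinc proteases made as inactive precursors, and together they can degrade nearly every protein of the matrix. Most are secreted, whereas the membrane-type MMPs stay on the cell surface, held by a transmembrane segment or by a lipid (GPI) anchor. ADAMTS proteases are secreted enzymes with thrombospondin repeats that cut proteoglycans, procollagens, fibrillin-associated proteins or von Willebrand factor. TIMPs bind the active site of these enzymes. One of them, TIMP2, also joins the membrane-type protease MMP14 in the complex that activates the MMP2 precursor. In melanoma these genes are studied for their part in invasion through the matrix.

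Library totals ran from 17573990 to 22908309. Levels are CPM, counts scaled to a common library size with TMM factors, and a gene without counts could have reached 3 counts, which is 0.135 to 0.173 CPM per library (counting error only). All 8 melanocyte and melanoma markers were detected, with Dct at a mean of 8573 CPM with DMSO, and all 8 were higher with CX-5461. Defining markers of other cells were at or near 0. Krt5, Krt10, Cdh5, Itgam, Fcgr1, Thy1 and Col3a1 had no count in any library, while the fibroblast-expressed Pdgfra and Col1a1 and the lysosomal Cd68 had 2.81 to 12.3 CPM as group means. The 6 fibroblast markers summed to 9.71 to 14.3 CPM with DMSO and 7.13 to 7.97 CPM with CX-5461, and the 6 macrophage and leukocyte markers to 10.6 to 10.8 and 11.2 to 13.5 CPM. The share of counts from mitochondrial genes was 1.70 to 1.84% with DMSO and 2.70 to 3.40% with CX-5461, and with mitochondrial and the most abundant genes left out 13 members were still called higher and 5 lower. CX-5461 replicate 2 stood apart from the others of its group on the second principal component, at -15.5 against 8.49 and 6.91. Of all 12198 genes with enough counts to be tested, 73.7% changed at an adjusted p below 0.05, with 37.2% higher and 36.5% lower with CX-5461. This split depends on the scaling. It was 32.7% higher and 41.9% lower (74.6% in all) with library totals only, and 30.6% higher and 43.9% lower (74.5% in all) with the gene-span offset, which removes the trend of levels with the genomic length of genes.

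With CX-5461 more members rose than fell, and many were silent in both groups. Of the 46 members, 12 had no count in any of the 6 libraries, 5 more never had more than 3 counts in a library, 6 were detected but had too few counts to be tested, and 23 were tested. Of the 23 tested, 13 rose, 5 fell and 5 did not pass, so that 78.3% were called, near the 73.7% of all tested genes. Higher calls were 13 of 23, where 37.2% of all tested genes were called higher, and lower calls 5 of 23, where 36.5% were. At least 2-fold, 9 members rose and 3 fell, where 11.7% and 4.16% of all tested genes did. The median log2 change of the tested members was 0.65, against -0.005 for all tested genes. Without CX-5461 replicate 2 the counts were 14 higher and 4 lower. In this bulk RNA a difference in the number of expressing cells and a difference in RNA per cell cannot be told apart.

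Of the 12 silent members, 7 belong to 1 cluster. In it 10 MMP genes lie side by side on chromosome 9 between 7272514 and 7699585 (GRCm38), a stretch of 427 kb. These 10 genes had 15 counts in all 6 libraries together. In map order, Mmp13 (a collagenase) had 1 count, Mmp12 (macrophage elastase) 1 count and Mmp27 13 counts. Mmp1b and Mmp1a (interstitial collagenases), Mmp3 and Mmp10 (stromelysins), Mmp8 (neutrophil collagenase), Mmp20 (the enamel protease) and Mmp7 (matrilysin) had 0. All 4 collagenase genes were thus at or near 0 in both groups. The other silent members were Mmp21 and the ADAMTS genes Adamts2 (a procollagen N-proteinase), Adamts15, Adamts16 and Adamts18, while Adamts3, Adamts8 and Adamts19 had 1 to 3 counts in all. For a gene at 0, each library taken alone allows a level of up to 0.135 to 0.173 CPM, and all 6 together allow less. Lower mean levels could still give single counts, as for Adamts8 at 0.051 CPM with CX-5461. A total of 0 therefore does not show that a gene had no RNA.

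Promoter sequences are set beside these levels because the cluster and the other members differ in the motifs they hold. Genes of the cluster are close relatives, so their promoters are not independent. Of the 46 members, 32 matched by symbol in the RefSeq promoter table of build GRCm38.p6. Mmp2, Mmp9 and Adamts4 were among those without a match. The 250 bases before each start were searched on both strands. For Mmp8, Mmp14, Adamts9, Adamts12, Adamts18 and a window of Mmp7, the bases after the start were not found near the start of an annotated transcript. The window of Adamts20 lay well inside its annotated gene. These starts are therefore less sure. The AP-1 motif TGANTCA, bound by FOS and JUN proteins and long studied in MMP promoters, was present in 8 of the 10 genes of the chromosome 9 cluster and in 0 of the other 22 members. It was present in 7.82% of 27025 genes. The TATA motif TATAAA was present in 7 of 10 cluster genes and in 2 of the other 22 (14.3% of all genes). The GC box GGGCGG, bound by SP1, was present in 0 of 10 cluster genes and in 16 of the other 22 (35.4% of all genes). A run of 4 GGG blocks parted by 1 to 7 bases, a pattern that can fold into a G-quadruplex, was present in 0 of 10 and in 10 of 22 (18.4% of all genes). These are matches of letters and not shown binding sites, and TGANTCA reads as the same motif on both strands. In all, 6 promoters are shown, 5′ to 3′ on the gene's strand up to the base before the start, with AP-1, TATA, GC box and E-box (CACGTG or CATGTG) letters in capitals. The first 3 are of silent or nearly silent cluster genes and the last 3 of the most changed abundant members.
Mmp13, chr9:7272264-7272513, plus strand: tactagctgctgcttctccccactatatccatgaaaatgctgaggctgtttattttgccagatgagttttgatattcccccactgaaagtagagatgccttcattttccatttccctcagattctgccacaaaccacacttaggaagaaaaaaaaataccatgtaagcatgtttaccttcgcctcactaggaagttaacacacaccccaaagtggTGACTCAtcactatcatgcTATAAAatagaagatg
Mmp3, chr9:7445572-7445821, plus strand: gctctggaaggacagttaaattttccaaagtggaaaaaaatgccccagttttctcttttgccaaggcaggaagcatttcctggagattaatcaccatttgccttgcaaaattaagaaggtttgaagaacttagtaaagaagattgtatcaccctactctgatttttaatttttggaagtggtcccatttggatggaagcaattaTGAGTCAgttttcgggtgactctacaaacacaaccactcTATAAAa
Mmp1a, chr9:7463891-7464140, plus strand: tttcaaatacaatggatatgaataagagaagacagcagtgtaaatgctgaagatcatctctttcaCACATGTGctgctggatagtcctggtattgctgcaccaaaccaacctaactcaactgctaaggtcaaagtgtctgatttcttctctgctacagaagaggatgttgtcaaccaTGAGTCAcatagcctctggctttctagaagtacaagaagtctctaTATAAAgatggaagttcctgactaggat
Adamts1, chr16:85803114-85803363, minus strand: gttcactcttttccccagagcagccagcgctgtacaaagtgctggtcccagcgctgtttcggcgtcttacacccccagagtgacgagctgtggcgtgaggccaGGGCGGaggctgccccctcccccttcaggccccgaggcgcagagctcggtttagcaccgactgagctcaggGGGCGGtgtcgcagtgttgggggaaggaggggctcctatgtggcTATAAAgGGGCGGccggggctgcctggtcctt
Timp2, chr11:118355412-118355661, minus strand: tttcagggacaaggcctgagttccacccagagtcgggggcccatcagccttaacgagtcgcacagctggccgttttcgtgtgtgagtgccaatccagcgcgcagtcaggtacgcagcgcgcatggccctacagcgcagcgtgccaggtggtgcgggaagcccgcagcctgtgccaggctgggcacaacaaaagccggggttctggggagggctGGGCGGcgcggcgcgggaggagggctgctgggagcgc
Timp3, chr10:86300162-86300411, plus strand: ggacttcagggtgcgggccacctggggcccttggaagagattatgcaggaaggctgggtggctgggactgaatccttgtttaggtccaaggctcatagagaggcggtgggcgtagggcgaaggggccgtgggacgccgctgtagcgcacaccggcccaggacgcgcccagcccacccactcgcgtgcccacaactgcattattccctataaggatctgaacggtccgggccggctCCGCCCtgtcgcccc
The AP-1 letters begin 35 bases before the start of Mmp13, 46 before that of Mmp3 and 73 before that of Mmp1a. In Mmp1a a pair of overlapping CATGTG matches, 1 on each strand, begins 185 and 183 bases before the start. The 3 expressed genes have no AP-1 letters in this window. Adamts1 has a TATA match and 3 GC boxes, whereas Timp2 and Timp3, which changed in opposite directions, have 1 GC box each.

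Most of the listed genes that could encode AP-1 and other factors of these promoters were expressed, and they went both ways. Of 18 listed factors 16 were tested, of which 8 rose and 8 fell, with a median log2 change of 0.11, where 37.2% of all tested genes were higher and 36.5% lower. The other 2 were too low to test. Fosl1, an AP-1 subunit, had 5 counts over the DMSO libraries and 9 over the CX-5461 libraries, and Etv4 had 2 and 8. With the gene-span offset 5 were higher and 8 lower, as the calls of Ets1, Runx1 and Nfkb1 were lost. Fos, an AP-1 subunit, rose by 2.01 ± 0.14 (log2, SE), with 2.53 ± 0.413 CPM for DMSO and 10.2 ± 0.0807 CPM for CX-5461 (SD, n = 3 each; edgeR adjusted p = 2.926e-09). Jun, its partner, was among the 8 that fell, by 0.83 on the log2 scale from 213.6 ± 11.1 to 120.02 ± 1.32 CPM, as did Junb and Fosl2. Sp1, the factor that binds GC boxes, fell from 151 ± 8.11 to 86.4 ± 3.39 CPM (edgeR adjusted p = 1.726e-09). Elk3, an ETS factor, rose 2.91-fold. Mitf, the E-box-binding regulator of the melanocyte lineage, rose by 2.18 ± 0.05 (log2) to 435.6 CPM, or by 1.34 with the gene-span offset. Jun, Junb, Fosl2, Sp1, Ets1, Runx1, Nfkb1, Fosl1 and Etv4 were named after their values were seen.

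**Figure D1:**
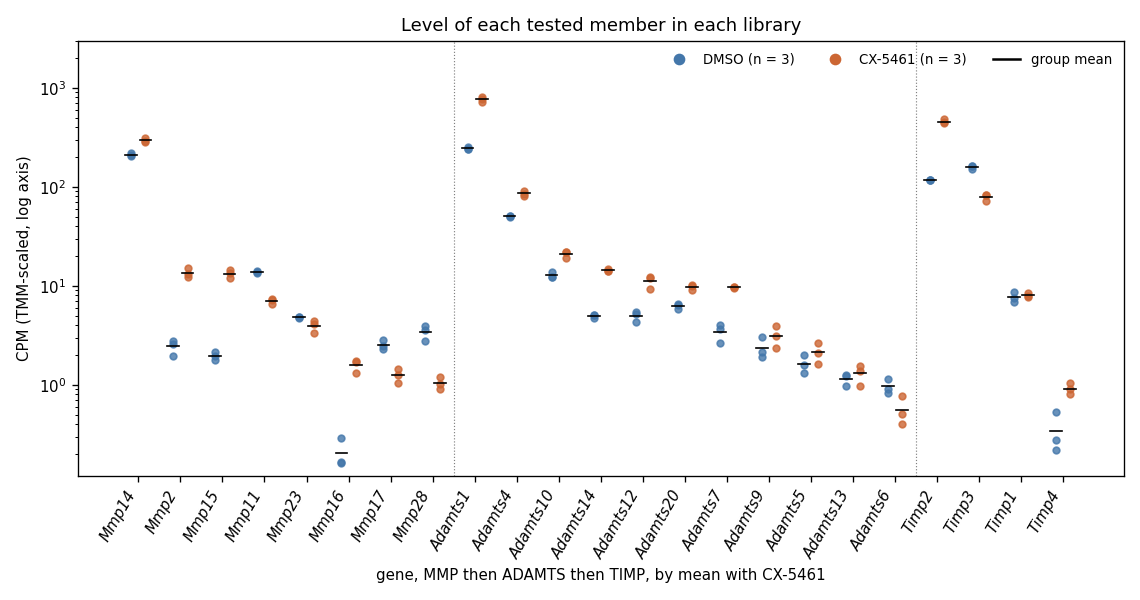
Level of each of the 23 tested members in each library, as TMM-scaled CPM on a log axis, with DMSO in blue, CX-5461 in orange and the mean of 3 libraries as a black line. Adamts1, Mmp14 and Timp2 have the highest levels with CX-5461, followed by Adamts4 and Timp3, and the groups overlap for Adamts5, Adamts9, Adamts13 and Timp1.

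Per kilobase of exon, the scale on which levels of genes can be set side by side, Adamts1 was the most abundant member in both groups, at 46.5 CPM per kb with DMSO and 145.2 with CX-5461. With DMSO it was followed by Mmp14 (35.3), Timp2 (30.1), Timp3 (19.5), Adamts4 (10.5) and Timp1 (8.70). With CX-5461 Timp2 (117 CPM per kb) lay above Mmp14 (49.7), Adamts4 (17.9), Timp3 (9.74) and Timp1 (9.04). The means of Timp3 and Timp1 with CX-5461 are too close to order. All other tested members were below 5 CPM per kb in both groups. The groups of libraries did not overlap for 19 of the 23 tested members, where the share of all tested genes was 76.1%.

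Among the TIMPs, the inhibitors, the gene most abundant per kilobase rose and the next one fell. Timp2 (chromosome 11, 118301069 to 118355740), the inhibitor that also serves MMP2 activation, stood at 117, 117 and 119 CPM in the DMSO libraries and at 441, 448 and 480.5 CPM in the CX-5461 libraries. All CX-5461 libraries were far above all DMSO libraries. Timp2 rose 3.89-fold, by 1.96 ± 0.05 (log2, SE, n = 3 per group; edgeR adjusted p = 2.648e-14). Timp3 (chromosome 10, 86300372 to 86349506), which stays bound to the matrix and also inhibits ADAMTS proteases, stood at 152, 162 and 163 CPM with DMSO and at 83.3, 72.0 and 82.8 CPM with CX-5461. The CX-5461 libraries were all lower, with replicate 2 the lowest. It fell 2.00-fold, with an SE of 0.06 on the log2 scale (edgeR adjusted p = 4.536e-10). The CPM ratio of Timp2 to Timp3 ran from 0.722 to 0.769 with DMSO and from 5.29 to 6.22 with CX-5461. Per kilobase, Timp2 made up 51.6% of the TIMP level with DMSO and 86.1% with CX-5461, and Timp3 33.4% and 7.16%.

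Timp1 (chromosome X, 20870166 to 20874735) encodes an inhibitor often induced by growth signals. It stood at 8.74, 7.62 and 6.81 CPM with DMSO and at 8.42, 7.88 and 7.78 CPM with CX-5461. The groups overlap, and the log2 change of 0.06 ± 0.12 did not pass (edgeR adjusted p = 0.6727). Timp4, the least abundant of the family, had 4, 11 and 5 counts with DMSO and 20, 18 and 16 with CX-5461, and rose 2.57-fold (log2 change 1.36 ± 0.37, edgeR adjusted p = 0.003669). Timp1, Timp3 and Timp4 each lie inside a synapsin gene on the opposite strand, an arrangement known for this family, and whether counting used strand is not given in the sources used here. Syn3, around Timp3, had 17 to 46 counts per library against 1252 to 3347 for Timp3, and was higher with CX-5461 (log2 change 0.74) where Timp3 fell. Syn2, around Timp4, had 8 to 17 counts with DMSO and 46 to 65 with CX-5461, a rise of 1.95 (log2), so both genes of that pair rose. The annotated exons of Timp3 and Syn3 share 1733 bases, which is 21.3% of the exonic bases of Timp3, and those of Timp4 and Syn2 share 90 bases. How far the reads of either pair mix was not tested.

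**Figure D2:**
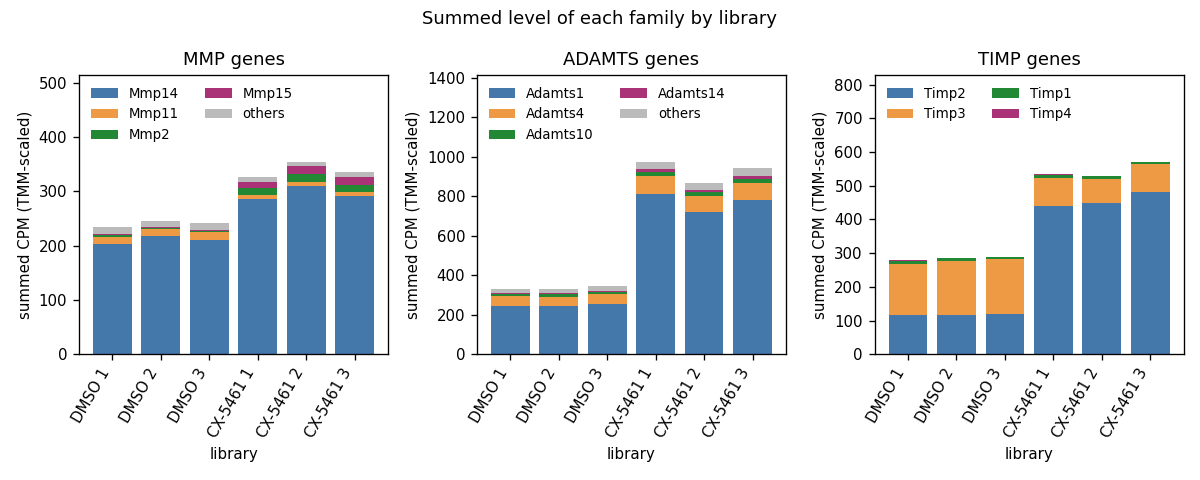
Summed TMM-scaled CPM of all MMP, ADAMTS and TIMP genes in each of the 6 libraries, with bars split by the main genes of each family and the rest in grey. The bars of all 3 families are taller in every CX-5461 library, and Timp2 takes a larger part of the TIMP bar there. The bars are not corrected for exon length, so parts of 1 bar are not levels to compare between genes.

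Among the membrane-type MMPs, which act at the cell surface, the 3 tested genes with a transmembrane segment rose and the 1 tested gene with a GPI anchor fell. Mmp14 (MT1-MMP; chromosome 14, 54431612 to 54445364), the main collagen-degrading protease of the cell surface, stood at 203, 217 and 211 CPM with DMSO and at 287, 310.1 and 292 CPM with CX-5461. The rise was modest but the groups were well apart. It was 1.41-fold, or 0.49 ± 0.05 on the log2 scale (edgeR adjusted p = 1.208e-07). Mmp15 (MT2-MMP; chromosome 8, 95352268 to 95375080) stood at 2.13, 1.98 and 1.79 CPM with DMSO and at 12.02, 13.3 and 14.6 CPM with CX-5461. Each CX-5461 library held several times the level of any DMSO library. The change was 6.74-fold, or 2.75 ± 0.14 on the log2 scale (edgeR adjusted p = 9.477e-11).

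Mmp16 (MT3-MMP; chromosome 4) went from 3, 6 and 3 counts to 38, 30 and 26 counts. It rose by 2.87 ± 0.35 (log2; edgeR adjusted p = 2.278e-06), which is 7.32-fold, while the gene-span offset gave 3.63-fold. Mmp17 (MT4-MMP, GPI-anchored) went from 2.54 ± 0.271 to 1.246 ± 0.203 CPM and fell 2.00-fold (SE 0.21 on the log2 scale, edgeR adjusted p = 0.0004966). The other member of each kind was too low to test. Transmembrane Mmp24 had 4 counts over the DMSO libraries and 14 over the CX-5461 libraries, a ratio of 3.36 with a lower 95% exact bound of 1.05 that covers counting error only. GPI-anchored Mmp25 had 6 and 14 counts, a ratio of 2.24 with an interval of 0.808 to 7.10.

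The 2 gelatinases, which cleave denatured collagen and basement membrane collagen IV, were far apart. Mmp2 (chromosome 8, 92827291 to 92853420) stood at 2.79, 1.98 and 2.57 CPM with DMSO and at 12.2, 15.1 and 13.1 CPM with CX-5461. The groups were widely separated, and Mmp2 rose 5.52-fold, by 2.46 ± 0.14 (log2; edgeR adjusted p = 5.29e-10). With Mmp14 and Timp2, all 3 transcripts of the MMP2 activation complex therefore rose. Mmp9 (chromosome 2, 164940780 to 164955850) was nearly absent from both groups, with 11, 10 and 7 counts against 10, 7 and 13. The ratio of its summed counts was 1.03, with a 95% exact interval of 0.593 to 1.78 that covers counting error only.

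The other MMPs that could be tested were lower or did not pass. Mmp11 (stromelysin 3; chromosome 10, 75923222 to 75936496), which unlike most MMPs is activated inside the cell by furin, stood at 13.4, 13.9 and 14.2 CPM with DMSO and at 6.57, 7.42 and 7.13 CPM with CX-5461. All CX-5461 libraries were lower, and the log2 change was -0.98 ± 0.10 (edgeR adjusted p = 2.91e-07). Mmp11 shares 155 exonic bases with Chchd10 on the opposite strand, a far more abundant gene (389.6 CPM with DMSO) that fell by 1.62 on the log2 scale. The part of its reads in the Mmp11 change was not tested. Mmp28 (epilysin) went from 3.42 ± 0.606 to 1.04 ± 0.156 CPM and fell 3.29-fold (log2 change -1.72 ± 0.22, edgeR adjusted p = 4.162e-06). Mmp23, a protease held in the membrane by its N-terminal part, was at 4.82 ± 0.0753 and 3.98 ± 0.579 CPM and did not pass (edgeR adjusted p = 0.1158). Mmp19 had 24 and 28 counts and Mmp27 3 and 10, with ratio intervals of 0.625 to 2.02 and 0.823 to 18.1 (counting error only). Mmp19 shares 789 exonic bases, 22.3% of its own, with Tmem198b on the opposite strand. Tmem198b had 1128 counts with DMSO and 1265 with CX-5461, and the part of its reads in the Mmp19 counts was not tested.

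Of the 11 tested ADAMTS genes, 7 rose, 1 fell and 3 did not pass, where 73.7% of all tested genes were called and 37.2% were higher. With the gene-span offset the calls of Adamts12 and Adamts20 were lost. The proteoglycanases, which cut aggrecan and versican, were led by Adamts1 (chromosome 16, 85793827 to 85803113). It stood at 243, 242 and 254 CPM with DMSO and at 810.5, 719 and 779.9 CPM with CX-5461. All CX-5461 libraries were higher, with replicate 2 the lowest of them. Adamts1 rose 3.12-fold, by 1.64 ± 0.05 (log2; edgeR adjusted p = 2.995e-13). It made up 73.5% of the summed ADAMTS CPM with DMSO and 82.8% with CX-5461, or 75.2% and 84.0% per kilobase. Adamts5, an aggrecanase whose gene lies 53.1 kb from Adamts1 on the same strand, had 24, 33 and 36 counts with DMSO and 47, 28 and 53 with CX-5461. These groups overlap, and the log2 change of 0.40 ± 0.24 did not pass (edgeR adjusted p = 0.1436).

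Adamts4 (chromosome 1, 171250421 to 171260637), the other classic aggrecanase, stood at 50.04, 50.4 and 50.5 CPM with DMSO and at 91.0, 81.2 and 85.6 CPM with CX-5461. The DMSO libraries were nearly equal and all CX-5461 libraries were higher, by 0.77 ± 0.05 (log2; edgeR adjusted p = 4.208e-09). Adamts20 (chromosome 15, 94270163 to 94465418), mutated in the belted mouse with its white band of pigment-free coat, stood at 6.39, 5.89 and 6.53 CPM with DMSO and at 9.18, 9.95 and 10.3 CPM with CX-5461. The groups did not overlap and it passed as higher by 0.65 ± 0.11 (log2; edgeR adjusted p = 7.468e-05). With the gene-span offset the sign turned and the call was lost, at -0.12 (adjusted p = 0.3599). Adamts9, a versican-cutting protease, was at 2.36 ± 0.577 and 3.15 ± 0.814 CPM and did not pass (edgeR adjusted p = 0.1174). Its sign also turned with the offset, to -0.25.

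Adamts14 (chromosome 10, 61197112 to 61273438) was the only one of the 3 procollagen N-proteinases to be expressed. It stood at 5.13, 5.07 and 4.75 CPM with DMSO and at 14.3, 14.1 and 14.9 CPM with CX-5461. The replicates were close within each group, and Adamts14 rose 2.89-fold, by 1.53 ± 0.10 (log2; edgeR adjusted p = 2.657e-09). Both ADAMTS genes known to cut the cartilage protein COMP rose. Adamts7 (chromosome 9, 90163069 to 90208071) stood at 2.68, 4.01 and 3.68 CPM with DMSO and at 9.77, 9.43 and 9.75 CPM with CX-5461, a rise of 1.47 ± 0.14 (log2; edgeR adjusted p = 1.366e-07). Adamts7 shares 122 exonic bases with Tbc1d2b, which rose by 0.46 (log2), and the part of those reads was not tested. Adamts12 (chromosome 15, 11064790 to 11349231) stood at 5.41, 4.34 and 5.19 CPM with DMSO and at 11.9, 9.26 and 12.3 CPM with CX-5461. Its groups did not overlap, and it passed as higher by 1.18 ± 0.14 (log2; edgeR adjusted p = 1.31e-06). With the gene-span offset this fell away, to 0.10 (adjusted p = 0.5017).

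A pair of proteases that act on fibrillin microfibrils went apart. Adamts10 (chromosome 17, 33524204 to 33553782) stood at 12.3, 13.7 and 12.4 CPM with DMSO and at 22.1, 18.9 and 22.0 CPM with CX-5461, and rose by 0.72 ± 0.09 (log2; edgeR adjusted p = 3.404e-06). Adamts6 had 21, 19 and 15 counts with DMSO and 17, 7 and 10 with CX-5461, and passed narrowly as lower by -0.75 ± 0.32 (log2; edgeR adjusted p = 0.0462). That call was lost with DESeq2 (adjusted p = 0.1356), without the low-count filter (adjusted p = 0.06251) and when DMSO replicate 1, 2 or 3 or CX-5461 replicate 2 or 3 was left out (adjusted p = 0.05444 to 0.1598), while the gene-span offset moved it to -1.57. Adamts13, the protease of von Willebrand factor, was at 1.15 ± 0.161 and 1.31 ± 0.303 CPM and did not pass (edgeR adjusted p = 0.461). Adamts17, too low to be tested, had 3 counts over the DMSO libraries and 30 over the CX-5461 libraries. The ratio was 9.59, with a 95% exact interval of 2.98 to 49.1 that covers counting error only. Its gene spans 313 kb, and tested genes over 200 kb had a median log2 change of 1.11. The change of Adamts17 was not fitted with the gene-span offset.

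**Figure D3:**
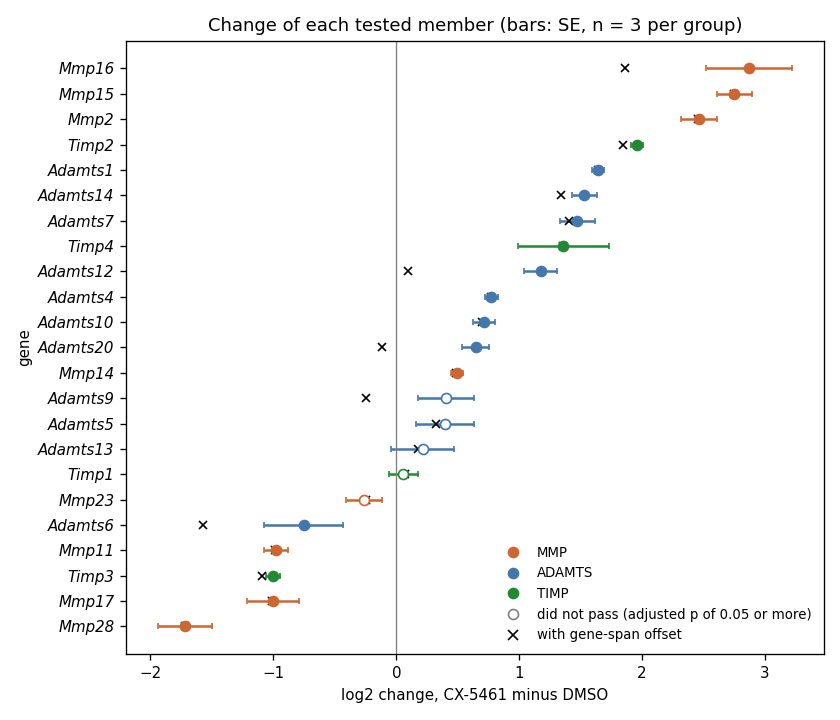
Log2 change of each tested member, CX-5461 minus DMSO, with its SE (n = 3 per group). Filled circles passed at an adjusted p below 0.05, open circles did not, and crosses give the change with the gene-span offset, which moves Adamts12, Adamts20, Adamts9, Adamts6 and Mmp16 most.

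Members differ widely in genomic span, from 2.73 kb for Mmp23 to 284 kb for Adamts12 among those tested, and long genes rose more in these libraries. All 557 tested genes over 200 kb had a median log2 change of 1.11, against -0.08 for the 5832 genes of 10 to 50 kb. The gene-span offset removes, library by library, the smooth trend of the log2 level with span. With it 11 members were higher and 5 lower, where 30.6% and 43.9% of all tested genes were, and the median log2 change of the 23 tested members was 0.32 in place of 0.65. Of the 3 tested members over 200 kb, Mmp16 lay above the median of genes of that span, Adamts12 close to it and Adamts6 below it. The rises of Adamts1, Mmp2, Mmp14, Mmp15 and Adamts4 and the falls of Mmp11, Mmp17 and Mmp28, all of genes under 30 kb, hardly moved, with Mmp17 at -1.01.

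**Figure D4:**
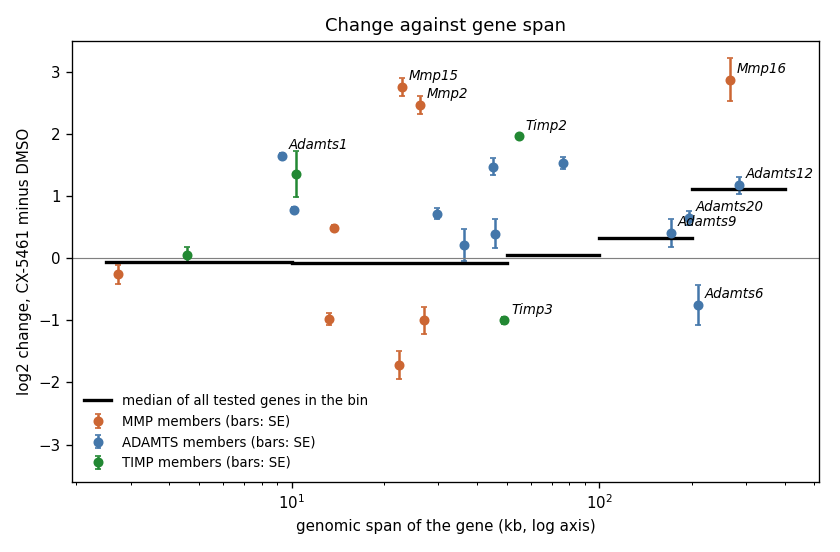
Log2 change of each tested member (bars, SE) against the genomic span of its gene in kb on a log axis, with the median of all tested genes in 5 span bins as black lines (the last bin holds all genes over 200 kb). The median of all genes rises from -0.07 in the shortest bin to 1.11 in the longest, while Mmp15, Mmp2 and Adamts1 lie far above the median of short genes.

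Summed over each family, the MMP level went from 241 ± 5.86 to 340 ± 14.1 CPM (SD, n = 3 per group), the ADAMTS level from 335 ± 7.79 to 929.6 ± 54.5 CPM and the TIMP level from 285 ± 5.66 to 544.6 ± 23.7 CPM. These are ratios of 1.41, 2.77 and 1.91, given without a test because the members were chosen. Mmp14 alone held 87.4% of the MMP sum with DMSO and 87.2% with CX-5461, so the MMP sum followed Mmp14. Mmp2 and Mmp15 each went from 1.02% and 0.817% of the MMP sum to 3.96% and 3.92%. These shares are not corrected for exon length. Per kilobase, Mmp14 made up 78.4% of the MMP level with DMSO and 80.8% with CX-5461, Mmp2 1.61% and 6.48%, and Mmp15 0.809% and 4.01%.

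Genes that act with these proteases moved as well. Of 21 listed activators, receptors and other inhibitors, 16 were tested, of which 11 rose and 5 fell, with a median log2 change of 0.56, where 37.2% and 36.5% of all tested genes did. The counts were the same with the gene-span offset. Plau (urokinase), a serine protease that activates plasminogen, rose by 3.90 ± 0.23 (log2, SE) from 0.336 ± 0.0511 to 5.06 ± 0.224 CPM, and its relative Plat by 1.95 ± 0.13. Pcolce, an enhancer of procollagen C-proteinase, rose 2.90-fold. Furin, the convertase that removes the propeptide of MMP14 and MMP11, fell from 135 ± 3.16 to 115 ± 7.03 CPM (edgeR adjusted p = 0.0005969). Reck, a membrane inhibitor of MMPs, fell from 33.6 ± 2.15 to 27.1 ± 0.686 CPM (edgeR adjusted p = 0.0009368).

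Of 23 listed ADAM and astacin proteases and ADAMTS-like proteins, 16 were tested, and 14 of them rose, while Adam17 fell and 1 more did not pass (median log2 change 1.01), against the same 37.2% higher over all tested genes. With the gene-span offset 12 were higher, as the calls of Adam10 and Adam22 were lost. Adamtsl4, a fibrillin-binding relative of the ADAMTS proteins without protease activity, rose 5.50-fold to 109.7 ± 8.62 CPM, and Adamtsl2, of the same kind, by 2.31 ± 0.21 (log2). Adam12, a membrane protease, rose by 4.11 ± 0.28, or 2.89 with the gene-span offset. Of 25 listed matrix substrates 15 were tested, and 11 of them rose, 3 fell, and 1 missed the threshold (median log2 change 0.95), where 37.2% of all tested genes were higher. With the gene-span offset 10 were higher and 4 lower, as Lamc1, whose groups overlap, turned from 0.18 to -0.19. Col1a2, a chain of collagen I, rose by 3.51 ± 0.13, whereas Col1a1, the partner chain, fell by 1.30 on the log2 scale. Spp1 (osteopontin) rose by 3.32 ± 0.11, and Vwf, the substrate of ADAMTS13, by 3.15 ± 0.13. The aggrecan gene Acan and the neurocan gene Ncan had no count in any library, and versican (Vcan) rose but only from 0.524 ± 0.335 to 1.29 ± 0.291 CPM, so the classic proteoglycan substrates of ADAMTS1 and ADAMTS4 were scarce. Brevican (Bcan) was present and fell from 18.6 ± 1.26 to 11.4 ± 0.692 CPM. Col1a1, Vcan, Acan, Ncan, Bcan, Adam17, Adam10, Adam22 and Lamc1 were named after their values were seen.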

How the data were processed

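RNA was sequenced in 6 samples of B16 cells, 3 with DMSO and 3 with 1 uM CX-5461, grouped by their titles. The authors deposited 1 table of whole-number counts per protein-coding gene, not normalized, as column totals that differ show. Per the submitters' processing notes, the builds were GRCm38 and mm10, names of the same assembly. For the aligner, counter and strand setting, nothing is given in the sources used here. Positions, spans and exon lengths are from GENCODE M21 (GRCm38), which held 21919 of the 22740 identifiers.

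The members and all lists were chosen with earlier results of these data known. A filter on low counts (filterByExpr, minimum count 10, edgeR 4.0.16) left 12198 genes. The test was edgeR's two-sided quasi-likelihood F test with TMM factors (R 4.3.3) on all 6 libraries, adjusted by Benjamini-Hochberg over all tested genes, with 0.05 as threshold. Each SE is the log2 change over the root of its F value. Per-library CPM are printed for tested members whose higher group mean reached 5 CPM. From each list up to 3 called genes with the largest change at that level and groups that did not overlap were named, and Mmp2, Mmp9, Mmp14, the TIMPs, Adamts1, Furin and Reck always. On simulated counts of 12198 genes the test recovered 34 of 50 genes changed 1.25-fold, 46 of 50 changed 1.5-fold, 49 of 50 changed 2-fold and 48 of 50 changed 4-fold, with 11 false calls. Only 200 genes were changed there, equally up and down, with 1 common spread for all genes and both groups. Here 73.7% of tested genes were called and the groups differed in noise, so these rates need not hold for this comparison. Replicates differed by more than sampling noise, and more so with CX-5461. Chi-square per degree of freedom was 1.57 to 2.56 between DMSO libraries and 5.65 to 9.40 between CX-5461 libraries. Alternatives included DESeq2 1.42.0, limma-voom 3.58.1 and an offset for gene span.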

Additional observations from a re-analysis of the deposited data

How the results depend on the processing

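Over 18 alternatives, 11 to 15 members were called higher and 4 to 6 lower, against 13 and 5, and 15 of the 18 called members kept their direction and call wherever they could be tested. The exceptions were Adamts6 (above), Adamts12, which with the gene-span offset was at 0.10, or 0.08 with a replicate block as well, and Adamts20, which turned to -0.12 with the offset and to -0.12 with the offset and the block. Adamts9, not called, turned to -0.25 and -0.24 under the same 2 settings, and Timp1, not called, to -0.017 with library totals only and, with 1 library left out at a time, ranged from -0.026 (without DMSO replicate 3) to 0.15 (without DMSO replicate 1). Adamts5 passed without CX-5461 replicate 2 (0.54), Adamts9 without DMSO replicate 3 (0.61) or CX-5461 replicate 1 (0.59), and Mmp23 with library totals only (-0.34). With library totals only the log2 ratio of the summed MMP level was 0.42 in place of 0.49, and that of the TIMP level 0.86 in place of 0.94. Adamts6 and Timp4 were not tested with a filter of 1 CPM in 3 libraries. Adamts17 was called higher with no filter (3.10), without DMSO replicate 1 (3.98) and without DMSO replicate 3 (3.15), all without the gene-span offset. The replicate numbers did not clearly pair the samples, with correlations of same-numbered samples of 0.036, 0.004 and -0.008. DMSO replicates 1 and 2 correlated best with their own number, and DMSO replicate 3 with CX-5461 replicate 2 (0.035). All these correlations were small, from -0.040 to 0.036. A replicate block left 13 members higher and 5 lower. Counts of about 20 or fewer in at least 1 library limit Adamts6, Adamts13, Timp4, Mmp16, Mmp17 and Mmp28 and all members not tested.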
